A study of Homo sapiens with 6 samples.

Results

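The tensins are a family of 4 cytoplasmic proteins that tie integrins to the actin cytoskeleton. All 4 genes (TNS1, TNS2, TNS3 and TNS4) were taken by symbol from a table of 20263 genes measured by poly(A) RNA-seq in HCT116 cells, an established human colorectal cancer line. The family was taken up because TNS2 was among the genes with the largest rise between the groups, so the differences of its members between the groups are given as a description and carry no test of their own. Of the 6 libraries, 3 came from cells labelled as CSE treated (CSE) and 3 from cells labelled WT. The labels do not spell CSE out, and because the series title names smoking it is taken to mean cigarette smoke extract. Its dose, the exposure time and any vehicle are not stated in the labels. Both groups are the same line and differ by the treatment label alone. The series title links smoking in colorectal cancer with CKAP2L, STAT3, AREG and EGFR.

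Tensins share a C-terminal SH2 domain, which binds phosphotyrosine, and a PTB domain, which binds the cytoplasmic tails of beta integrins. TNS1, TNS2 and TNS3 add an N-terminal region that binds actin, while TNS4, also called Cten, lacks it and cannot link integrins to actin in the same way. TNS1 marks the long-lived fibrillar adhesions of mesenchymal cells, and TNS4 is the family member known for high levels in epithelial tumours, colorectal cancers among them. In cultured mammary cells, EGF is known to lower TNS3 and to raise TNS4, a swap linked to migration.

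The coding sequences of GENCODE 29 show what the family shares and where it differs. The sequences below are a stretch of 30 coding bases in the region of the PTB domain. It was located in every tensin with a set residue pattern and is shown as a part that all members have. Its first 5 codons, which spell the same residues in all members, are in capitals, and some later codons also spell shared residues. The stretch is read 5′ to 3′ on the coding strand on GRCh38. It lies on chromosome 12 at 53063205 to 53063234 (plus strand) in TNS2, on chromosome 2 at 217809846 to 217809875 (minus strand) in TNS1, on chromosome 7 at 47283720 to 47283749 (minus strand) in TNS3, and on chromosome 17 at 40479697 to 40479726 (minus strand) in TNS4.
TNS2: GTCCACTTCAAGGTGtcagcccagggcatt
TNS1: GTTCACTTCAAAGTCtctgcccagggaatc
TNS3: GTGCACTTCAAGGTGtcagcccagggcatc
TNS4: GTCCACTTCAAAGTCacagagcagggcatc

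The longest annotated coding sequence has 1419 codons in TNS2, 1860 in TNS1, 1445 in TNS3 and 715 in TNS4. Over the last 840 coding bases, which hold the SH2 and PTB domains, identity between members, as a percentage of the gapped global alignment, ranged from 63.3% (TNS3 and TNS4) to 72.1% (TNS1 and TNS3). On the same measure TNS2 was 69.4% identical to TNS1, 69.3% to TNS3 and 64.9% to TNS4. The longest run of identical bases between the transcripts of any pair was 26, in TNS2 and TNS3, and 14 to 20 in the other pairs.

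Libraries were compared before the members. Values are TPM, the share of each library's transcripts corrected for transcript length, so the sequencing depth is unknown, and 12640 to 12778 genes reached 1 TPM in a library. Genes with at least 1 TPM in at least 3 libraries were tested with limma, and a gene was called higher or lower in CSE where its Benjamini-Hochberg adjusted p was under 0.05. CSE replicate 3 stood apart from the other CSE libraries on the second principal component (score -9.31, against 4.35 and 5.70), which held 9.26% of the variance. Its values moved with transcript length. In log2(TPM + 1), its difference from the mean of CSE replicates 1 and 2 had a median of 0.03 in the quintile of tested genes with the shortest merged exons and -0.13 in the quintile with the longest. All 4 tensins had their lowest CSE value in this library, where 57.9% of all genes tested did so, and 85.3% of those in the longest quintile. The differences were -0.26 for TNS1, -0.22 for TNS2, -0.18 for TNS4 and -0.10 for TNS3. Transcript length as a cause of the tensin values was not tested. A refit with a trend on exon length removed was chosen after seeing the data. It gave log2 fold changes, CSE minus WT, of 1.12 for TNS2, -0.16 for TNS1, 0.13 for TNS3 and 0.04 for TNS4. Results that turn on CSE replicate 3 are given with and without that library.

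**Figure D1:**
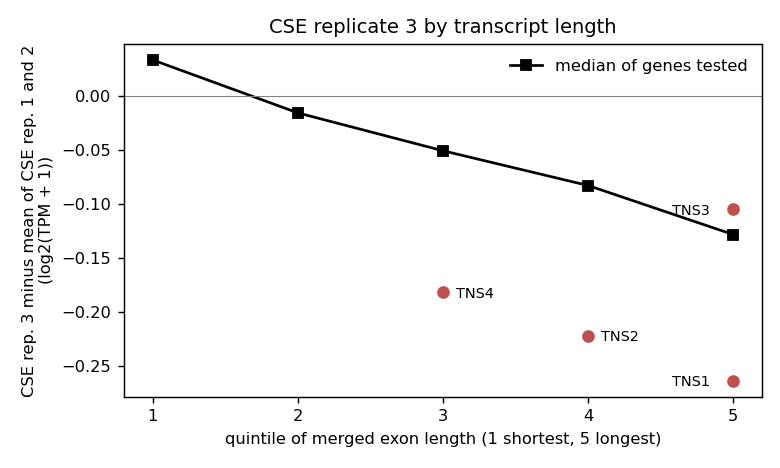
Difference of CSE replicate 3 from the mean of CSE replicates 1 and 2 on the log2(TPM + 1) scale (vertical axis) by quintile of merged exon length (horizontal axis, 1 shortest to 5 longest). Squares are medians of the genes tested, at 0.03 in the first quintile and -0.13 in the last, and circles are single tensins; TNS1, TNS2 and TNS4 lie below the median of their quintile and TNS3, at -0.10, slightly above it.

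As a check of the labelled cell type, the epithelial genes EPCAM, CDH1, KRT8, KRT18 and KRT19 were all above 100 TPM in every library. CDX2 was at 8.29 to 10.5 TPM and KRT20 at 3.75 to 5.68 TPM. The other 4 of the 11 colon epithelial markers were not tested. VIL1, CDH17 and GPA33 were under 1 TPM in every library, and CDX1 was listed at 0 in all libraries. Of 11 markers of fibroblasts and smooth muscle, cells with much TNS1, 8 were not tested, among them DCN, listed at 0 in all libraries. Their summed level was 61.1 to 63.4 TPM in CSE libraries and 72.7 to 75.6 TPM in WT libraries, most of it COL1A1 and ACTA2. The summed level of 9 endothelial and blood markers was 14.9 to 16.3 TPM in CSE libraries and 18.5 to 19.7 TPM in WT libraries, most of it CD68. Both sums were lower in CSE libraries, and their part in the tensin values was not tested. The endothelial and blood markers differed in direction. CD68 (12.1 TPM in CSE, 17.6 TPM in WT) and PECAM1 (0.0633 TPM in CSE, 0.147 TPM in WT) were lower in every CSE library. KDR (0.790 TPM in CSE, 0.420 TPM in WT) and HBB (1.55 TPM in CSE, 0.190 TPM in WT) were higher in every CSE library. The groups of the other endothelial and blood markers overlapped.

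TNS2 was the only tensin whose CSE and WT values did not overlap. TNS2 (ENSG00000111077, chromosome 12, 53046969 to 53064372, plus strand) binds beta integrins, the receptor tyrosine kinase AXL and the insulin receptor substrate IRS1, which it is reported to dephosphorylate. It had 20.57, 21.27 and 17.79 TPM in CSE replicates 1, 2 and 3, against 8.80, 9.0 and 8.50 TPM in WT replicates 1, 2 and 3. Every CSE library was above every WT library, with CSE replicate 3 the lowest of its group and no WT library above 9.0 TPM. The means were 19.9 ± 1.84 TPM in CSE and 8.77 ± 0.252 TPM in WT (SD, n = 3 each), a ratio of 2.27 and a log2 fold change of 1.09 (SE 0.0651) on the log2(TPM + 1) scale, CSE minus WT. In bulk RNA, more expressing cells and more RNA per cell cannot be told apart. Only 8 of 12793 genes tested had a larger log2 fold change. Without CSE replicate 3 the log2 fold change of TNS2 was 1.17.

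TNS1 was the least abundant tensin and the one with a lower mean in CSE. TNS1 (ENSG00000079308, chromosome 2, 217799588 to 218033982, minus strand) binds actin filaments and beta1 integrin at fibrillar adhesions. It had 4.26, 4.02 and 3.28 TPM in CSE replicates 1, 2 and 3, against 4.73, 4.81 and 4.26 TPM in WT replicates 1, 2 and 3. The groups met at 4.26 TPM, the highest CSE and the lowest WT value. The means were 3.85 ± 0.511 TPM in CSE and 4.60 ± 0.297 TPM in WT (SD, n = 3 each), a log2 fold change of -0.21 (SE 0.0860). Without CSE replicate 3 it was -0.12, and TNS1 was then no longer called.

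TNS3 and TNS4, the pair tied to EGF signalling, changed little. TNS3 (ENSG00000136205, chromosome 7, 47275154 to 47582558, minus strand) binds p130Cas, encoded by BCAR1, and the focal adhesion kinase encoded by PTK2. It had 9.51, 9.85 and 8.93 TPM in CSE replicates 1, 2 and 3, against 9.17, 8.81 and 8.34 TPM in WT replicates 1, 2 and 3. The groups overlapped, with CSE replicate 3 below WT replicate 1. The means were 9.43 ± 0.465 TPM in CSE and 8.77 ± 0.416 TPM in WT (SD, n = 3 each), a log2 fold change of 0.09 (SE 0.0651).

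TNS4 (ENSG00000131746, chromosome 17, 40475828 to 40501597, minus strand) stabilises the receptors EGFR and MET and has been found with beta-catenin in the nucleus of colorectal cancer cells. It had 63.55, 62.31 and 55.36 TPM in CSE replicates 1, 2 and 3, against 59.07, 58.32 and 58.84 TPM in WT replicates 1, 2 and 3. The 3 WT libraries lay within 1 TPM of each other, and the CSE libraries fell on both sides of them, replicate 3 being the lowest of all 6. The means were 60.4 ± 4.41 TPM in CSE and 58.7 ± 0.384 TPM in WT (SD, n = 3 each), a log2 fold change of 0.04 (SE 0.0489). When CSE replicate 3 was left out, TNS4 was called higher at 0.10, and with mitochondrially encoded genes left out its log2 fold change was -0.02.

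**Figure D2:**
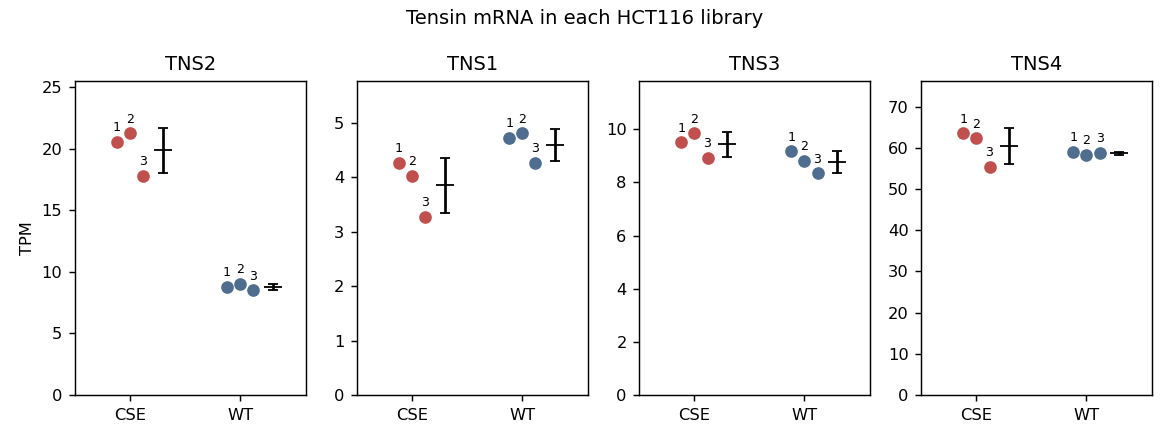
TPM (vertical axis, from 0, own scale in each panel) of the 4 tensins in the 3 CSE and 3 WT libraries, with replicate numbers above the points and the mean ± SD beside them. TNS2 lies at 17.79 to 21.27 TPM in CSE and at 8.50 to 9.0 TPM in WT, while the groups of TNS1, TNS3 and TNS4 meet or overlap.

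In limma over all genes, 2 of the 4 tensins were called, TNS2 higher and TNS1 lower, where 50.1% of all genes tested were called. Higher calls made up 24.5% and lower calls 25.6% of the genes tested. Group values that did not overlap were seen for 1 of the 4 tensins, TNS2, and for 57.4% of all genes tested, 27.5% with CSE higher. Since the same contrast led to the choice of the family, nothing is read from these counts.

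By level, the family was dominated by TNS4 in every library. In CSE the order was TNS4, TNS2, TNS3 and TNS1, with no overlap between neighbours. In WT TNS4 came first and TNS1 last, and TNS2 and TNS3 overlapped, at 8.50 to 9.0 TPM for TNS2 and 8.34 to 9.17 TPM for TNS3. Among genes tested, the mean over all libraries put TNS4 at the 81.1st percentile of TPM, TNS2 at the 38.9th, TNS3 at the 27.1st and TNS1 at the 14.5th.

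The composition of the family differed between the groups through TNS2. The summed tensin level was 97.9, 97.5 and 85.4 TPM in the CSE libraries, against 81.8, 80.9 and 79.9 TPM in the WT libraries, with every CSE sum above every WT sum. Of the mean difference of 12.7 TPM, TNS2 held 11.1 TPM, TNS4 1.66 TPM and TNS3 0.657 TPM, and TNS1 differed by -0.747 TPM. The sum of TNS1, TNS3 and TNS4 overlapped between the groups, at 73.7 ± 5.33 TPM in CSE and 72.1 ± 0.780 TPM in WT (SD, n = 3 each).

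As a share of the summed tensin TPM, TNS2 held 21.0%, 21.8% and 20.8% in the CSE libraries, against 10.8%, 11.1% and 10.6% in the WT libraries. The 3 CSE shares lay within 1 percentage point of each other, although CSE replicate 3 had the lowest TPM of its group for every member. TNS4 held 64.6% ± 0.548 in CSE and 72.6% ± 0.847 in WT (SD, n = 3 each), without overlap. The share of TNS1 was 4.11% ± 0.255 in CSE and 5.69% ± 0.319 in WT, and that of TNS3 was 10.1% ± 0.373 in CSE and 10.8% ± 0.392 in WT, with overlap for TNS3 alone. Shares of a sum are bound to each other, so a larger TNS2 share lowers the other 3.

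**Figure D3:**
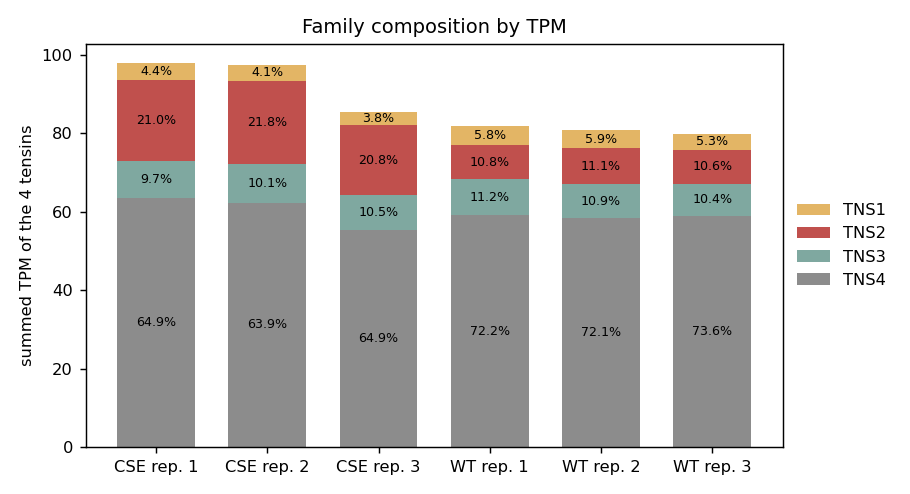
Stacked TPM of the 4 tensins (vertical axis, from 0) in each CSE and WT library, with each member's percentage of the sum inside its segment. The TNS2 segment is 20.8% to 21.8% of the sum in CSE and 10.6% to 11.1% in WT.

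Ratios between members within a library do not depend on the library's total. TNS2 had 2.16, 2.16 and 1.99 times the TPM of TNS3 in the CSE libraries, against 0.960, 1.02 and 1.02 times in the WT libraries. It had 5.18 ± 0.312 times the TPM of TNS1 in CSE and 1.91 ± 0.0750 times in WT (SD, n = 3 each). TNS4 had 3.04 ± 0.0995 times the TPM of TNS2 in CSE and 6.70 ± 0.221 times in WT. The ratio of TNS4 to TNS3, the pair that EGF moves in opposite directions in mammary cells, was 6.40 ± 0.251 in CSE and 6.71 ± 0.316 in WT and overlapped between the groups. On the log2(TPM + 1) scale the difference between TNS2 and another member was larger in CSE than in WT by 1.30 for TNS1, 1.00 for TNS3 and 1.06 for TNS4.

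The start regions of TNS2 are shown because TNS2 is the member with the largest difference. RefSeq promoter windows (250 bases before to 50 after a start, GRCh38.p14) were at hand for 3 of the 4 tensins, with 3 windows for TNS2, 5 for TNS1 and 3 for TNS3, and none was used for TNS4. The gene-level table does not say which start was used. The first TNS2 window (plus strand) and the one furthest downstream (plus strand) are printed 5′ to 3′, with capitals marking matches to the motifs searched. The third window, at 53046973 to 53047272, overlaps the first.
TNS2 chr12:53046741-53047040: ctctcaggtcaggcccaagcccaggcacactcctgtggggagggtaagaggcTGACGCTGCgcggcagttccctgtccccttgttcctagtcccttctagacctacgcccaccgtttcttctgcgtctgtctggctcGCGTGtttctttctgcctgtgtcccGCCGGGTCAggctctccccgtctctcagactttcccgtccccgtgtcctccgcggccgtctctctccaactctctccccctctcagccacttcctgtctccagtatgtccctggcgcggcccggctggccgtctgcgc
TNS2 chr12:53048939-53049238: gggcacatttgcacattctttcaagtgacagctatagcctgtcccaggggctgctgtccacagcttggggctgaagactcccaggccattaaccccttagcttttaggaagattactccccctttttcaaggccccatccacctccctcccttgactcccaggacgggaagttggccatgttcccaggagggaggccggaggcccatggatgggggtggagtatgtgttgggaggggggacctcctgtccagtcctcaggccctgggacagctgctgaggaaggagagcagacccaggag

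In all 11 windows, 5 motifs were searched on both strands: TTCNNNGAA for STAT factors, TGANTCA for AP-1, GCGTG for the aryl hydrocarbon receptor, TGACNNNGC for the antioxidant response and GGAATG for TEAD factors. The first TNS2 window held 1 match to GCGTG, at position -113 from the start, and 2 to TGACNNNGC, at -198 and -88, none overlapping another. The other TNS2 windows and all 3 TNS3 windows held no match to any of the 5 motifs. Across the 5 TNS1 windows there were 2 matches each to GCGTG, TGACNNNGC and GGAATG. Of all 35116 promoter windows of the table, 36.5% held GCGTG, 13.3% TGACNNNGC, 14.0% GGAATG, 7.71% TGANTCA and 7.66% TTCNNNGAA. A match describes letters in a window and does not show binding.

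Known binding partners of the tensins showed calls in both directions. Of 19 partner genes 17 were tested, of which 3 rose, 4 fell and 10 did not pass, with a median log2 fold change of -0.01 beside 0.00 for all genes tested, and 41.2% were called where 50.1% of all genes were. The split turned on single libraries, with 5 rises and 2 falls without CSE replicate 3 and 3 rises and 2 falls without WT replicate 1. ITGB1, the beta1 integrin whose tail tensins bind, fell to 323 ± 11.3 TPM in CSE, against 443 ± 5.32 TPM in WT (SD, n = 3 each, log2 fold change -0.46, SE 0.0374, limma adjusted p = 1.98e-09). DOCK5, a RAC exchange factor that TNS3 binds in osteoclasts, fell (-0.42, SE 0.0581, limma adjusted p = 3.39e-06). PEAK1, a pseudokinase that TNS3 binds, also fell (-0.24, SE 0.0811, limma adjusted p = 0.0161), but without CSE replicate 3 its log2 fold change was -0.12 and the call was lost. PPP1CA, the catalytic subunit of protein phosphatase 1 that TNS1 binds, rose to 243 ± 2.55 TPM in CSE, against 199 ± 5.01 TPM in WT (0.29, SE 0.0372, limma adjusted p = 1.59e-06). CTNNB1, which encodes beta-catenin, rose (0.18, SE 0.0384, limma adjusted p = 0.000523), as did PXN, the focal adhesion scaffold paxillin (0.16, SE 0.0403, limma adjusted p = 0.00245).

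The partners most often named beside TNS2 did not pass the test. AXL was at 51.9 ± 2.17 TPM in CSE and 49.4 ± 1.86 TPM in WT, and IRS1 at 35.4 ± 3.58 TPM in CSE and 32.3 ± 0.761 TPM in WT (SD, n = 3 each). Without CSE replicate 3, both passed as higher (log2 fold changes 0.10 for AXL and 0.21 for IRS1). DLC1, a RhoGAP that tensins hold at focal adhesions, was near absent at 0.0700 TPM in CSE and 0.0533 TPM in WT and was not tested, and its relatives STARD13 and STARD8 were at 1.98 and 4.34 TPM in CSE and at 1.86 and 4.63 TPM in WT.

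For the partners of TNS4 and TNS3, MET was at 142 ± 11.9 TPM in CSE and 145 ± 1.98 TPM in WT, and CBL, the ubiquitin ligase that TNS4 keeps from EGFR, was at 38.9 ± 6.48 TPM in CSE and 41.8 ± 1.15 TPM in WT (SD, n = 3 each). Neither passed, and both log2 fold changes turned positive without CSE replicate 3. BCAR1 was at 19.8 TPM in CSE and 18.9 TPM in WT, PTK2 at 52.7 TPM in CSE and 53.0 TPM in WT, and ILK, a pseudokinase of the integrin tail complex, at 79.3 TPM in CSE and 76.8 TPM in WT, and none of these passed.

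The core genes of integrin adhesion, a list that also holds ITGB1, split as well. All 22 were tested, and 3 rose, 6 fell and 13 did not pass, or 8, 6 and 8 without CSE replicate 3, with 40.9% called and a median log2 fold change of 0.00. With mitochondrially encoded genes left out, 2 were called higher and 10 lower. FERMT1, which encodes the epithelial kindlin that activates integrins, fell to 15.7 ± 1.58 TPM in CSE, against 26.1 ± 0.653 TPM in WT (SD, n = 3 each, log2 fold change -0.70, SE 0.0617, limma adjusted p = 5.73e-09). FN1, the fibronectin ligand around which fibrillar adhesions form, fell to 11.7 ± 1.07 TPM in CSE, against 16.2 ± 0.511 TPM in WT (-0.44, SE 0.0640, limma adjusted p = 7.02e-06). ITGB4, the laminin-binding beta4 integrin of hemidesmosomes, rose to 256 ± 12.8 TPM in CSE, against 209 ± 7.0 TPM in WT (0.29, SE 0.0418, limma adjusted p = 7.77e-06). TLN1, the integrin activator talin-1, rose (0.26, SE 0.0493, limma adjusted p = 0.000159) while its relative TLN2 fell (-0.32, SE 0.0788, limma adjusted p = 0.00186). KANK2, which joins talin to the cell cortex, rose (0.18, SE 0.0519, limma adjusted p = 0.00672), a call lost with mitochondrially encoded genes left out (0.12).

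**Figure D4:**
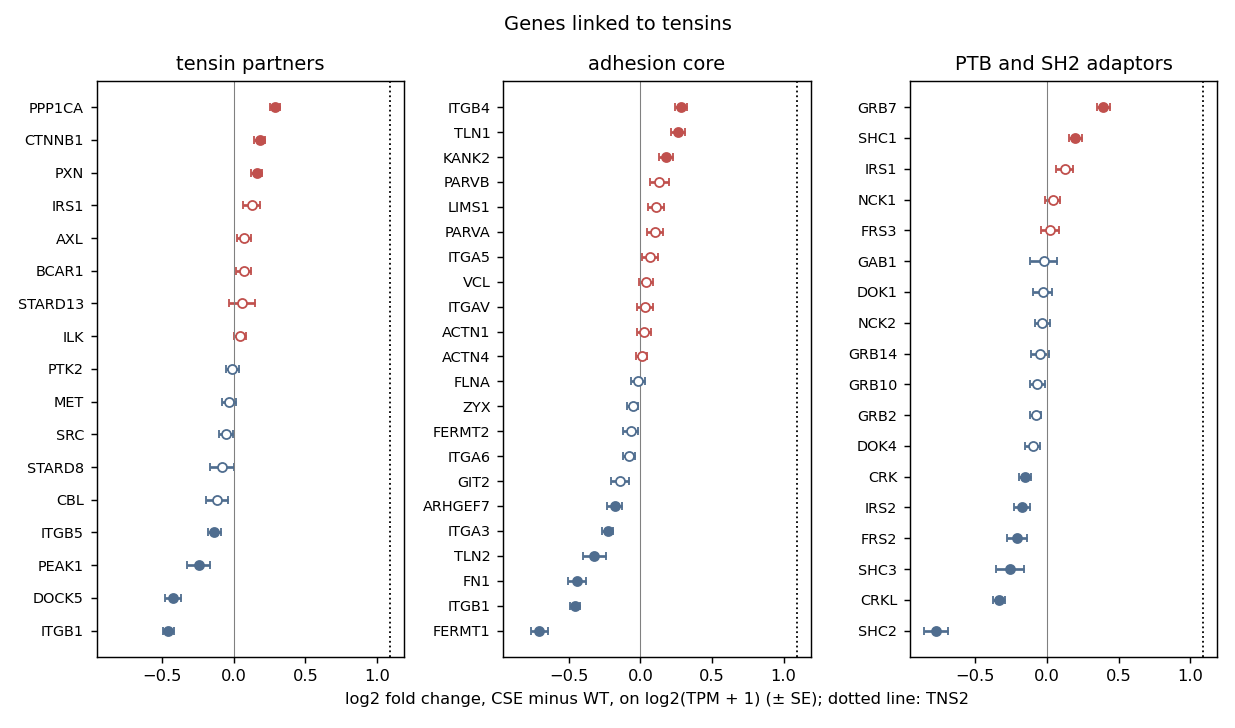
Log2 fold changes (CSE minus WT, horizontal axis, ± SE) of the tested tensin partners, adhesion core genes and genes of the PTB and SH2 adaptor list. Points are filled where limma's adjusted p was under 0.05, with red for higher, blue for lower values. The dotted line is TNS2 at 1.09, to the right of every gene shown, and the lowest point is SHC2 at -0.78.

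Adaptors that share a domain with the tensins were called in both directions. The list held 19 other adaptors, IRS1 again among them, all with a PTB or SH2 domain except GAB1. Of 18 tested, 2 rose, 6 fell and 10, GAB1 among them, did not pass, with a median of -0.06 and 44.4% called. Without CSE replicate 3 the list had 3 rises and 4 falls, without WT replicate 1 it had 2 and 4, and with mitochondrially encoded genes left out 2 and 9. SHC2 fell to 3.11 ± 0.390 TPM in CSE, against 6.02 ± 0.320 TPM in WT (-0.78, SE 0.0830, limma adjusted p = 1.09e-07), and CRKL, an adaptor downstream of p130Cas, fell as well (-0.34, SE 0.0428, limma adjusted p = 1.31e-06). SHC3 was called lower at 1.13 TPM in CSE and 1.55 TPM in WT (-0.26, SE 0.101, limma adjusted p = 0.0385), a call lost when any 1 of 4 libraries was left out. GRB7, an SH2 adaptor of ERBB receptors, rose to 72.1 ± 2.55 TPM in CSE, against 54.6 ± 2.52 TPM in WT (0.39, SE 0.0457, limma adjusted p = 3.66e-07), and SHC1 rose too (0.20, SE 0.0454, limma adjusted p = 0.00108).

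The EGF axis is set beside TNS4 because TNS4 responds to EGF and to STAT3 in other systems. The EGFR ligand genes AREG and EREG had log2 fold changes of 0.83 and 0.96, that of EGFR was -0.17 and that of STAT3 -0.05, next to 0.04 for TNS4 and 0.09 for TNS3. Other ligand genes of the list differed in direction, with TGFA called lower (-0.35, limma adjusted p = 2.71e-05), BTC called higher (0.56, limma adjusted p = 0.000178) and HBEGF not passing (0.09). Of 12 genes of this list 10 were tested, and 6 rose, 2 fell and 2 did not pass, with a median of 0.26. The rises were AREG, EREG, BTC, the receptor genes ERBB2 (0.26) and ERBB3 (0.25), and CKAP2L (0.44). CKAP2L is named in the series title and encodes neither an EGFR ligand nor a receptor. Calls made up 80% of the tested genes of the list, where 50.1% of all genes tested were called. The lower call of EGFR was lost without CSE replicate 3 (-0.08). The list holds the 4 genes of the series title, which the study may have chosen on these samples, so its count is not independent evidence.

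Neighbouring genes were called in both directions. Among the 2 nearest tested genes on each side of each tensin, 16 in all, 3 were called higher, 6 lower and 7 did not pass, with log2 fold changes from -0.89 to 0.46. Calls made up 56.2% of these neighbours and 50.1% of all genes tested. Some of them were far off, with TBRG4 2163107 bases from TNS3 and RPL37A 1220408 bases from TNS1. Around TNS2, the translation factor gene EIF4B, 4760 bases away, rose (0.17, limma adjusted p = 0.000404), the keratin gene KRT18 fell (-0.25, limma adjusted p = 8.43e-06) and IGFBP6, which encodes an IGF-binding protein, fell (-0.27, limma adjusted p = 0.00065). SPRYD3, whose annotated 3′ end overlaps that of TNS2 by 57 bases on the other strand, did not pass (log2 fold change -0.09). The antisense gene TNS2-AS1 overlaps TNS2 by 7470 bases and TNS1-AS1 overlaps TNS1 by 13909, and neither is among the genes of the deposited data. The labels do not say whether counting used strand, and without strand the reads of such a pair cannot be told apart. Next to TNS4, the topoisomerase gene TOP2A rose (0.46, limma adjusted p = 1.2e-08), and beyond TNS3, SUN3, a gene of the SUN domain family, fell to 5.89 TPM in CSE, against 11.8 TPM in WT (-0.89, limma adjusted p = 1.96e-09).

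The genes whose profile over the 6 libraries was most like that of TNS2 were CENPF, HMMR, EREG, C6orf141 and KIF20A. Likeness was the Euclidean distance between centred log2(TPM + 1) values, which also counts the size of the change. Candidates were genes with a mean of at least 5 TPM, with unnamed loci left out. By log2 fold change the 5 genes ranked 12, 7, 17, 14 and 11, beside TNS2 at 9. The likeness thus largely restates the contrast that led to the choice of TNS2. The distances were 0.0990 for CENPF, 0.161 for HMMR, 0.183 for EREG, 0.190 for C6orf141 and 0.195 for KIF20A. CENPF, a kinetochore-associated protein gene, had 95.4, 98.3 and 87.4 TPM in CSE, against 45.2, 45.5 and 44.7 TPM in WT. As with TNS2, CSE replicate 3 was the lowest of its group. The profiles nearest to TNS4 were those of HEATR5B (0.0206), HMGXB4 (0.0322) and CDK20 (0.0383), none of which passed the test.

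Across settings, TNS2 had log2 fold changes between 1.04 and 1.17. These are refits of the contrast that led to its choice and give no support of their own. TNS1, TNS3 and TNS4 each crossed the threshold in at least 1 alternative.

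**Figure D5:**
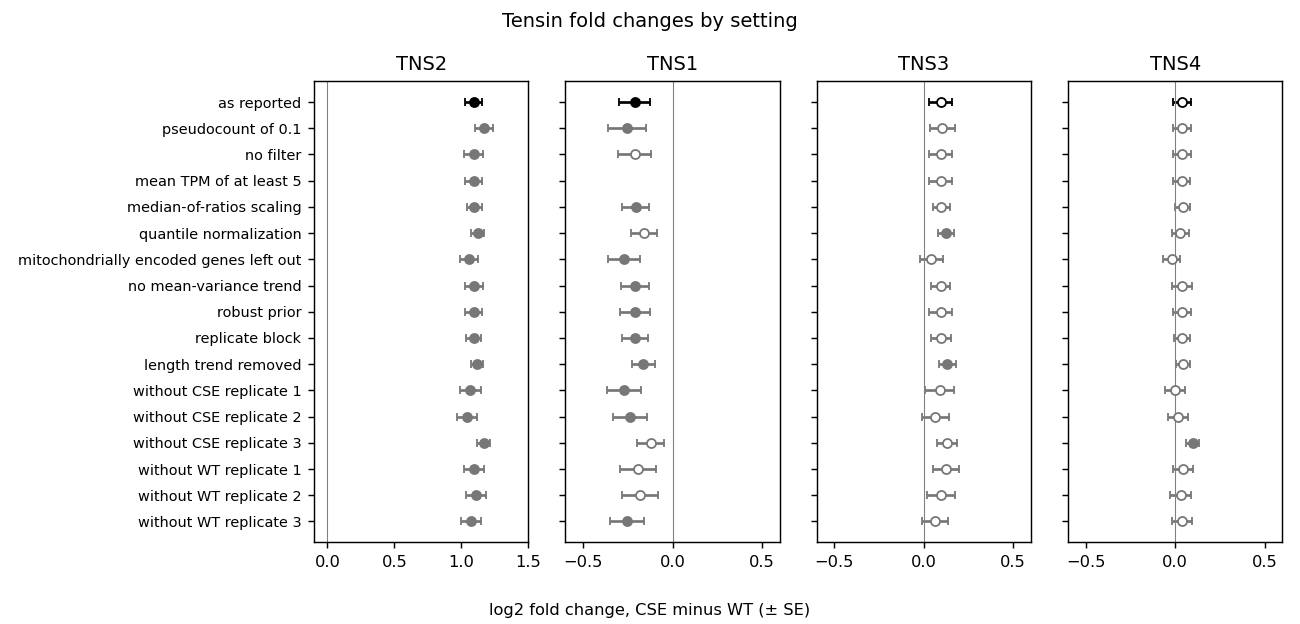
Log2 fold changes of the 4 tensins (CSE minus WT, horizontal axis, ± SE) as reported and under 16 alternatives (rows), with filled points where limma's adjusted p was under 0.05. TNS2 stays between 1.04 and 1.17, while TNS1, TNS3 and TNS4 lie closer to 0 and change their side of the threshold in some rows; TNS1 could not be fitted at a mean of at least 5 TPM.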

How the data were processed

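Poly(A) mRNA libraries were made from DNase-treated Trizol RNA, per the labels' protocols. HISAT2 2.0, Trimmomatic 0.36, bedtools 2.26.0, FastQC 0.11.2 and the build GRCh38 are listed in the submitters' processing notes, without role or order. For the counting program and its strand setting, nothing is given in the sources used here. TPM values of 20263 genes in 6 libraries make up the table the authors deposited, with 0 sample columns left unmapped. TPM keeps no depth, so no count model, counting interval or detection floor was used.

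Genes with at least 1 TPM in at least 3 libraries (12793) were compared on log2(TPM + 1) with limma 3.58.1 in R 4.3.3 (empirical Bayes with a mean-variance trend, Benjamini-Hochberg at 0.05). The procedure was also run on simulated data with few changed genes and independent noise. These data differ in both respects, so that run does not show how the procedure performs here. The log2(TPM + 1) scale understates changes of low genes. Whether the 3 samples of a group are separate cultures is not stated, so p-values measure only how these samples vary, and that variation may be technical. Symbols were matched for 20148 genes, and positions come from GENCODE 29, which need not be the authors' annotation.

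Members, gene lists and tests were chosen with earlier results of these data known. The genes named are the tensins, the 3 largest called rises and falls of the partner, adhesion and adaptor lists, 4 genes of the EGF axis, partners tied to 1 tensin, genes near the tensins and those with the nearest profile. TLN2, STARD13, STARD8, TGFA, BTC, HBEGF, ERBB2, ERBB3, PECAM1, KDR and HBB were named, and the value of CKAP2L given, after their values were seen. Alternatives changed the pseudocount, filter, scaling or prior, blocked on the replicate number, or left out 1 sample. The removal of a trend on exon length was chosen after seeing the data. A comparison of tensin protein sequences and 1 list of related genes were planned and are not reported here.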

Additional observations from a re-analysis of the deposited data

How the results depend on the processing

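Leaving out each library in turn gave a log2 fold change of 1.04 to 1.17 for TNS2, -0.27 to -0.12 for TNS1, 0.06 to 0.13 for TNS3 and -0.000205 to 0.0977 for TNS4. TNS1 was not called without CSE replicate 3, WT replicate 1 or WT replicate 2, without a filter (log2 fold change -0.21) or with quantile normalization (-0.16), and was not tested at a mean of at least 5 TPM. TNS3 was called higher with quantile normalization (0.12) and with the length trend removed (0.13). TNS4 was called higher without CSE replicate 3 and had a log2 fold change of -0.0200 with mitochondrially encoded genes left out, a setting that moved the median of all genes to -0.06 and the higher share of all calls to 34.1%, against 48.9% with them. With a pseudocount of 0.1 the difference between TNS2 and the other members was 1.42 for TNS1, 1.07 for TNS3 and 1.13 for TNS4. The TNS2 share of the family exceeded that of WT by 10.1 to 10.6 percentage points when single libraries were left out. The adhesion core had 9 to 14 calls when single libraries were left out, and 5 higher and 8 lower calls with quantile normalization. Among single genes, the sign turned with mitochondrially encoded genes left out for CDK20 (-0.0234), HEATR5B (-0.0153), HMGXB4 (-0.0159) and ILK (-0.0126), with the length trend removed for PTK2 (0.0335), and when single libraries were left out for CBL (-0.198 to 0.0260), MET (-0.0690 to 0.0392), PTK2 (-0.0316 to 0.0340) and CDK20 (-0.00496 to 0.0858). Mitochondrial transcripts made up a smaller share of each CSE library, at 25.5% to 25.8% of its total. In WT libraries their share was 27.0% to 30.2%, without overlap. The part of this difference in the changes above was not tested, nor was any other cause. Same-numbered CSE and WT libraries did not deviate together (r across genes -0.07, 0.02 and -0.09), so no pairing by number was seen. The largest r of any CSE and WT library was 0.12, for CSE replicate 3 and WT replicate 1. Values this small cannot show that the samples were unpaired. With the replicate block 6537 genes were called, against 6407 without it, and the calls of the 4 tensins did not change. Depth is unknown and cannot be given as a limit.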
